A study of Homo sapiens with 15 samples.

Results

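The 10 genes described here, PER1, PER2, PER3, CRY1, CRY2, NR1D1, NR1D2, DBP, BHLHE40 and ARNTL (also named BMAL1), belong to the circadian clock. They were taken by gene symbol from a count table of 58676 genes, and each matched 1 row. All 10 were among the 14461 genes with enough counts to test. Expression was measured by RNA sequencing of total RNA from PATU-8988T in 15 libraries. PATU-8988T is an established line of human pancreatic cancer cells. The libraries fall into 5 groups of 3: 0.1% DMSO (the vehicle), 100 nM THZ1 for 4 h, 100 nM THZ1 for 24 h, 100 nM YKL-5-124 for 4 h and 100 nM YKL-5-124 for 24 h. THZ1 and YKL-5-124 are covalent inhibitors of CDK7, a kinase of the general transcription factor TFIIH that also activates cell cycle kinases. The study asked how these compounds change gene expression at an early and a late time. The labels give no time for the DMSO libraries, no time of day and no synchronization of the cells, so no clock phase can be assigned to any library. Nor do they say whether replicates were separate cultures, so the p-values measure the spread between these libraries, which may be technical.

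The mammalian clock is a loop of transcription and feedback. ARNTL pairs with CLOCK and activates genes through E-box elements, among them the PER and CRY genes, whose proteins return to the nucleus and repress that pair. The nuclear receptors NR1D1 and NR1D2 (REV-ERB alpha and beta) repress ARNTL through ROR elements, and DBP and BHLHE40 carry the E-box signal to further genes, BHLHE40 also acting back on it. In most tissues the mRNAs of PER1, PER2, NR1D1, DBP and BHLHE40 are short-lived, and several of them also answer to serum, stress and cAMP outside the daily cycle.

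Depth ran from 15567057 to 22869590 counts per library. Values are given as CPM, each count over the library's total in tested genes at the usual CPM scale, after TMM scaling (which assumes that most genes do not change). The THZ1 24 h libraries stood apart in composition. Ribosomal protein mRNAs took 22.0% ± 1.18 (SD, n = 3) of the counts there against 10.7% ± 1.43 in DMSO. Transcripts of the mitochondrial genome (37 genes) took 3.46% to 4.44% against 0.862% to 1.25% in DMSO. The mean TMM factor of the THZ1 24 h libraries was 0.544 against 1.19 in DMSO. Directions in that group thus depend on the scaling and are given with it below. In these bulk samples fewer cells of a kind and less RNA per cell cannot be told apart. The slope of log2 CPM on log2 exonic length also differed between libraries, from -0.33 to -0.25 in THZ1 24 h and from -0.03 to 0.16 in all others, with DMSO replicate 2 the highest of all. The summed epithelial markers (9 genes, led by KRT8 and KRT18) ran from 1361 to 1643 CPM in DMSO and from 2728 to 3558 CPM in THZ1 24 h, although KRT19 had 0 counts in DMSO. The 3 mesenchymal markers summed to 205 to 223 CPM in DMSO and 394 to 397 CPM in THZ1 24 h, higher as well. The 4 acinar and 3 islet markers had 0 counts in every DMSO library. The part of these shifts in the results below was not tested.

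Clock gene mRNAs in DMSO covered a wide range of level per kilobase of exon. CRY1 (14.7 ± 1.56 CPM per kb) and NR1D2 (14.5 ± 1.19) were the highest and overlapped. They lay at percentiles 81.0 and 80.7 of all genes tested. BHLHE40 followed at 4.83 ± 0.166 and CRY2 at 2.24 ± 0.507, each separated from its neighbours in the order. ARNTL (0.795 ± 0.0922), PER1 (0.600 ± 0.177), PER3 (0.550 ± 0.161), PER2 (0.493 ± 0.197) and NR1D1 (0.354 ± 0.140) formed a low group in which each overlapped the next. DBP was the lowest at 0.130 ± 0.0155 CPM per kb, percentile 8.41, with 19 to 22 counts per DMSO library. Its exonic length of 6544 bases is a union over transcripts and lowers its level per kb. The order was largely the same in the YKL-5-124 groups, where CRY1 again ranked first. In YKL-5-124 24 h, however, PER2 ranked last at 0.193 ± 0.0837 CPM per kb, overlapping DBP. In THZ1 24 h BHLHE40 ranked first at 107 ± 7.43 CPM per kb and NR1D1 rose to the fourth place at 4.46 ± 1.23. In THZ1 4 h NR1D1 ranked last at 0.0398 CPM per kb, overlapping DBP.

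The motifs through which the loop is wired were searched on both strands in windows from 250 bases before to 50 bases after each RefSeq start (GRCh38.p14). All 10 genes matched, with 14 windows, ARNTL under the symbol BMAL1. The E-box (CACGTG) was present at PER1, NR1D2 and BHLHE40, in 3 of these 14 windows and in 7.26% of all 35116 windows. Its variant CACGTT was present at PER2, CRY1, CRY2 and NR1D1 (4 of 14, and 5.34% of all windows). The D-box (TTANGTAA), bound by DBP, was found at PER2, PER3 and NR1D2 (3 of 14, and 2.18%). The ROR element (TAGGTCA) was found at CRY2 and ARNTL (2 of 14, and 1.85%), and the cAMP element (TGACGTCA) at none of the 10 (1.85%). No matches overlapped. The sites below are those of the genes that the results turn on, each 30 bases read 5′ to 3′ on the strand of the gene, with the motif in capitals. CACGTT reads AACGTG from the other strand.
PER1 E-box: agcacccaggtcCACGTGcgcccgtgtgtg
BHLHE40 E-box: tccaaCACGTGagactcatgtgatgaagcc
NR1D2 E-box, distal: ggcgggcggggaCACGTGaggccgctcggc
NR1D2 E-box, proximal: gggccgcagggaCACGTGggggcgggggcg
NR1D1 E-box variant: gcgcaagagctcAACGTGccggctgttgga
CRY1 E-box variant: acacacttcagaAACGTGaggtgccggtgg
PER2 D-box: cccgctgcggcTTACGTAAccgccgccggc
ARNTL ROR element: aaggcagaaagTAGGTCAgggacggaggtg

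The PER1 site lies at chr17:8152560-8152589 on the minus strand, its motif 173 bases before the start, within the gene in GENCODE 29 but in no exon, since other transcripts of PER1 start further upstream. The BHLHE40 site lies at chr3:4979187-4979216 on the plus strand, 245 bases before the RefSeq start and inside an exon of a longer transcript. The 2 NR1D2 sites, at chr3:23945954-23945983 and chr3:23946004-23946033 on the plus strand, lie in no exon. The NR1D1 site, at chr17:40100740-40100769 on the minus strand, lies outside the annotated gene. The CRY1 site (chr12:107093621-107093650, minus strand) and the ARNTL site (chr11:13277809-13277838, plus strand) are exonic, and the PER2 D-box (chr2:238288595-238288624, minus strand) spans an exon's edge. A match describes letters in these windows and not binding. The same E-box letters stand at BHLHE40 and NR1D2, whose mRNAs went different ways in the groups described below.

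**Figure D1:**
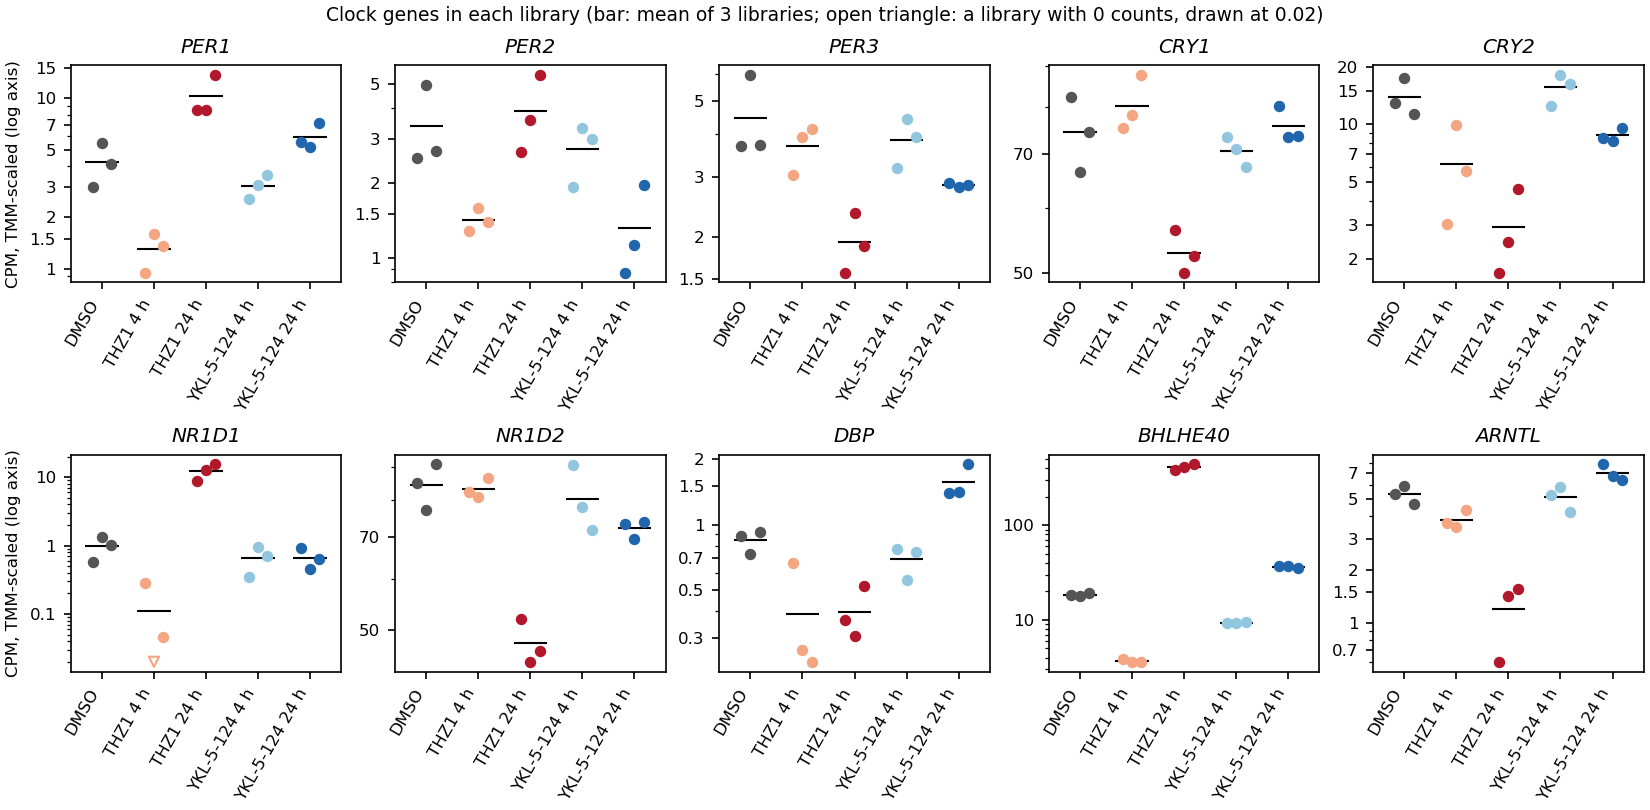
Level of each clock gene in each of the 15 libraries, as TMM-scaled CPM on log axes that differ between panels, with a bar at the mean of the 3 libraries of each group. BHLHE40 fell to 3.61 to 3.89 CPM after 4 h of THZ1 and stood at 384 to 441 CPM after 24 h, while CRY1 and NR1D2 stayed within 44.5 to 91.0 CPM in every library.

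The positive arm, ARNTL, was at 5.37, 5.96 and 4.72 CPM in the DMSO libraries, replicates 1 to 3 in that order here and below. It was at 3.65, 3.50 and 4.33 CPM after 4 h of THZ1 and at 0.604, 1.43 and 1.57 CPM after 24 h. All 6 THZ1 libraries lay below DMSO, those of 24 h also below those of 4 h. In edgeR's quasi-likelihood fit, with p-values adjusted by Benjamini-Hochberg over all genes, the 4 h difference did not pass (log2 fold change -0.48 ± 0.22 SE, adjusted p = 0.095). The 24 h difference did, a 4.38-fold fall (log2 -2.13 ± 0.27, adjusted p = 3.3e-06). In YKL-5-124 ARNTL was at 5.30, 5.90 and 4.23 CPM at 4 h and 7.87, 6.79 and 6.39 CPM at 24 h. The 24 h libraries all lay above DMSO, but the difference did not pass (log2 0.39 ± 0.22, adjusted p = 0.22). ARNTL is a long gene (chr11:13276652-13387266, plus strand, 110.6 kb).

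PER1, a repressor and an immediate target of the ARNTL and CLOCK pair, was at 3.02, 5.49 and 4.09 CPM in DMSO. After 4 h of THZ1 it was at 0.949, 1.59 and 1.35 CPM, every library below DMSO, and after 24 h at 8.57, 8.58 and 13.7 CPM, every library above. The fall was 3.25-fold (log2 -1.70 ± 0.29, adjusted p = 0.00024) and the later rise 2.44-fold (log2 1.29 ± 0.26, adjusted p = 0.00039). The rise depended on the scaling: the log2 value was 1.61 with RLE factors, 0.15 (not called) with library totals and -0.92 (called lower) relative to ribosomal protein mRNAs. In YKL-5-124 PER1 was at 2.56, 3.10 and 3.52 CPM at 4 h and 5.53, 5.21 and 7.14 CPM at 24 h, overlapping DMSO at both times. Neither difference passed (adjusted p = 0.65 and 0.19).

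PER2, its close relative, did not follow it at 24 h. In DMSO it was at 2.53, 4.95 and 2.70 CPM and after 4 h of THZ1 at 1.28, 1.59 and 1.40 CPM, a 2.39-fold fall with no overlap (log2 -1.26 ± 0.36, adjusted p = 0.012). Without DMSO replicate 2, where PER1, PER2, PER3, CRY2 and NR1D1 were each highest, the log2 value was -0.88 and the call was lost. By 24 h of THZ1 it was at 2.66, 3.57 and 5.43 CPM, overlapping DMSO (log2 0.20 ± 0.36, adjusted p = 0.62). YKL-5-124 gave the opposite order in time: 1.94, 3.32 and 2.99 CPM at 4 h, within the range of DMSO or below it, and 0.875, 1.12 and 1.97 CPM at 24 h, all below. The 24 h fall was 2.57-fold (log2 -1.36 ± 0.36, adjusted p = 0.014). It too was lost without DMSO replicate 2 (log2 -0.98), and also without YKL-5-124 24 h replicate 1 (-1.13) or 2 (-1.26). The call was lost as well relative to ribosomal protein mRNAs and when only DMSO and YKL-5-124 24 h entered the fit.

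PER3, the third period gene, was at 3.69, 5.96 and 3.71 CPM in DMSO and 3.04, 3.92 and 4.14 CPM after 4 h of THZ1, which overlapped (log2 -0.27 ± 0.23, adjusted p = 0.37). At 24 h of THZ1 it was at 1.57, 2.35 and 1.88 CPM, all below DMSO, a 2.29-fold fall (log2 -1.20 ± 0.26, adjusted p = 0.00061). At 24 h of YKL-5-124 it was at 2.87, 2.79 and 2.84 CPM, also below every DMSO library, and the difference did not pass (log2 -0.65 ± 0.23, adjusted p = 0.055). The 4 h YKL-5-124 libraries, at 3.17, 4.43 and 3.92 CPM, overlapped DMSO. The 3 period genes thus had 3 different profiles over the same libraries.

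The cryptochromes, the other partners in the repressor complex, were abundant in the case of CRY1 and moderate in that of CRY2. CRY1 was at 82.4, 66.6 and 74.5 CPM in DMSO, 75.3, 78.1 and 87.6 after 4 h of THZ1 and 56.4, 50.02 and 52.4 after 24 h. It was thus lower only at the later time, 1.41-fold (log2 -0.49 ± 0.10, adjusted p = 0.00052). That shift was close to the median of all genes at that time (log2 -0.37), and with RLE factors it was -0.17 and not called. YKL-5-124 left CRY1 at 67.4 to 73.4 CPM at 4 h and 73.5 to 80.2 CPM at 24 h, overlapping DMSO. The 95% interval of the log2 difference at 24 h was -0.19 to 0.24.

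CRY2 was at 12.9, 17.4 and 11.4 CPM in DMSO, 3.04, 9.86 and 5.72 CPM after 4 h of THZ1 and 1.69, 2.45 and 4.59 CPM after 24 h. No THZ1 library reached DMSO, although the 4 h libraries spread widely. The falls were 2.24-fold (log2 -1.17 ± 0.35, adjusted p = 0.014) and 4.72-fold (log2 -2.24 ± 0.39, adjusted p = 8.5e-05). The first was lost without THZ1 4 h replicate 3 (-1.12) and when only DMSO and THZ1 4 h entered the fit. In YKL-5-124 CRY2 was at 12.5, 18.04 and 16.2 CPM at 4 h and at 8.54, 8.21 and 9.55 CPM at 24 h. The later libraries were all below DMSO, without passing (log2 -0.66 ± 0.34, adjusted p = 0.18).

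NR1D1, the REV-ERB alpha receptor, had few reads outside THZ1 24 h. Its counts were 13, 35 and 24 in DMSO (0.577, 1.35 and 1.01 CPM), 6, 0 and 1 after 4 h of THZ1 and 72, 127 and 148 after 24 h (8.70, 12.97 and 15.4 CPM). It was nearly absent at 4 h and above every other library at 24 h. The ratio of THZ1 4 h to DMSO, 7 counts against 72, was 0.114 with a 95% interval from 0.0443 to 0.247, which covers counting error only. By edgeR the 4 h change was log2 -3.06 ± 0.68 (adjusted p = 0.0021) and the 24 h change 3.64 ± 0.45, a 12.5-fold rise (adjusted p = 2.6e-06). Most of its 4 h counts came from replicate 1, without which the 4 h value was -5.02. The 24 h rise was called under every scaling, at log2 2.51 with library totals and 1.44 relative to ribosomal protein mRNAs. In YKL-5-124 it had 9, 26 and 16 counts at 4 h and 26, 11 and 16 at 24 h, overlapping DMSO, with adjusted p of 0.83 and 0.47.

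NR1D1 (chr17:40092787-40100725, minus strand) shares 263 exonic bases, 9.49% of its own, with THRA on the opposite strand. Whether the counting used strand is not given here, so reads of the shared stretch cannot be told apart. THRA was at 2.81 ± 1.70 CPM (SD, n = 3) in DMSO, 2.75 ± 0.655 after 4 h of THZ1 and 8.63 ± 2.13 after 24 h. It rose at 24 h by log2 1.61 ± 0.36 (adjusted p = 0.00072), less than NR1D1, and at 4 h, when NR1D1 fell, its log2 change was -0.04 ± 0.36. The part of THRA in the NR1D1 values was not tested.

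NR1D2, the REV-ERB beta receptor, behaved unlike NR1D1. It was at 84.9, 77.2 and 91.0 CPM in DMSO, 82.3, 80.7 and 86.6 CPM after 4 h of THZ1 and 52.1, 44.5 and 46.3 CPM after 24 h. The 4 h libraries lay inside the DMSO range, with a 95% interval of the log2 difference from -0.25 to 0.21. The 24 h fall was 1.77-fold (log2 -0.82 ± 0.11, adjusted p = 4.9e-06). At 24 h of YKL-5-124 it was at 73.2, 69.4 and 73.9 CPM, just below DMSO and not called (log2 -0.22 ± 0.11, adjusted p = 0.15).

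DBP, an activator of D-box genes and a classical output of the loop, was scarce. Its counts were 20, 19 and 22 in DMSO, 14, 5 and 5 after 4 h of THZ1 and 3, 3 and 5 after 24 h. In CPM it was at 0.888, 0.735 and 0.927 in DMSO, 0.664, 0.265 and 0.233 at 4 h and 0.362, 0.306 and 0.522 at 24 h, below DMSO in each THZ1 library. The falls were log2 -1.11 ± 0.39 (adjusted p = 0.031) and -1.08 ± 0.45 (adjusted p = 0.039). Both are uncertain: the call was lost in 7 of 14 alternative fits at 4 h and in 8 of 14 at 24 h, among them DESeq2 and the fit with no filter on low counts. Leaving out 1 library ended the call at 4 h for DMSO replicate 1 (-1.08) or 3 (-1.05) and THZ1 replicate 2 (-0.91) or 3 (-0.84), and without THZ1 replicate 1 the value was -1.75. At 24 h the same held for DMSO replicate 1 (-1.05) or 3 (-1.02) and THZ1 replicate 1 (-0.98) or 2 (-0.87). The counting ratios to DMSO were 0.462 (0.275 to 0.752) and 0.470 (0.223 to 0.901). YKL-5-124 for 24 h gave 40, 34 and 48 counts (1.40, 1.42 and 1.89 CPM), above every DMSO library without passing (log2 0.88 ± 0.33, adjusted p = 0.072). DBP shares 661 exonic bases (10.1%) with SPHK2 on the opposite strand. SPHK2 also fell in THZ1, by 1.39 at 4 h and by 2.79 at 24 h on the log2 scale, and was at -0.29 ± 0.28 after 24 h of YKL-5-124. Its part in the DBP values was not tested.

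BHLHE40 (DEC1), a repressor that competes for E-boxes, was the one clock gene called against DMSO in all 4 treated groups. It was at 18.3, 18.1 and 19.3 CPM in DMSO, 3.89, 3.61 and 3.63 after 4 h of THZ1 and 384, 413 and 441 after 24 h. In YKL-5-124 it was at 9.18, 9.26 and 9.55 CPM at 4 h and 37.2, 36.9 and 35.0 CPM at 24 h. Both compounds thus had it below DMSO early and above DMSO late, with no overlap between any of the 5 groups. The early falls were 4.99-fold in THZ1 (log2 -2.32 ± 0.10, adjusted p = 3.1e-10) and 1.99-fold in YKL-5-124 (log2 -0.99 ± 0.09, adjusted p = 0.0002). The later rises were 22.3-fold in THZ1 (log2 4.48 ± 0.10, adjusted p = 2.8e-13) and 1.96-fold in YKL-5-124 (log2 0.97 ± 0.09, adjusted p = 4.8e-06). Its THZ1 24 h rise was still log2 3.35 with library totals and 2.30 relative to ribosomal protein mRNAs. When only DMSO and YKL-5-124 4 h entered the fit, the early YKL-5-124 value was unchanged at -0.99 and its adjusted p was 0.0511. BHLHE40 lies at chr3:4979116-4985323 (plus strand, 6.21 kb).

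**Figure D2:**
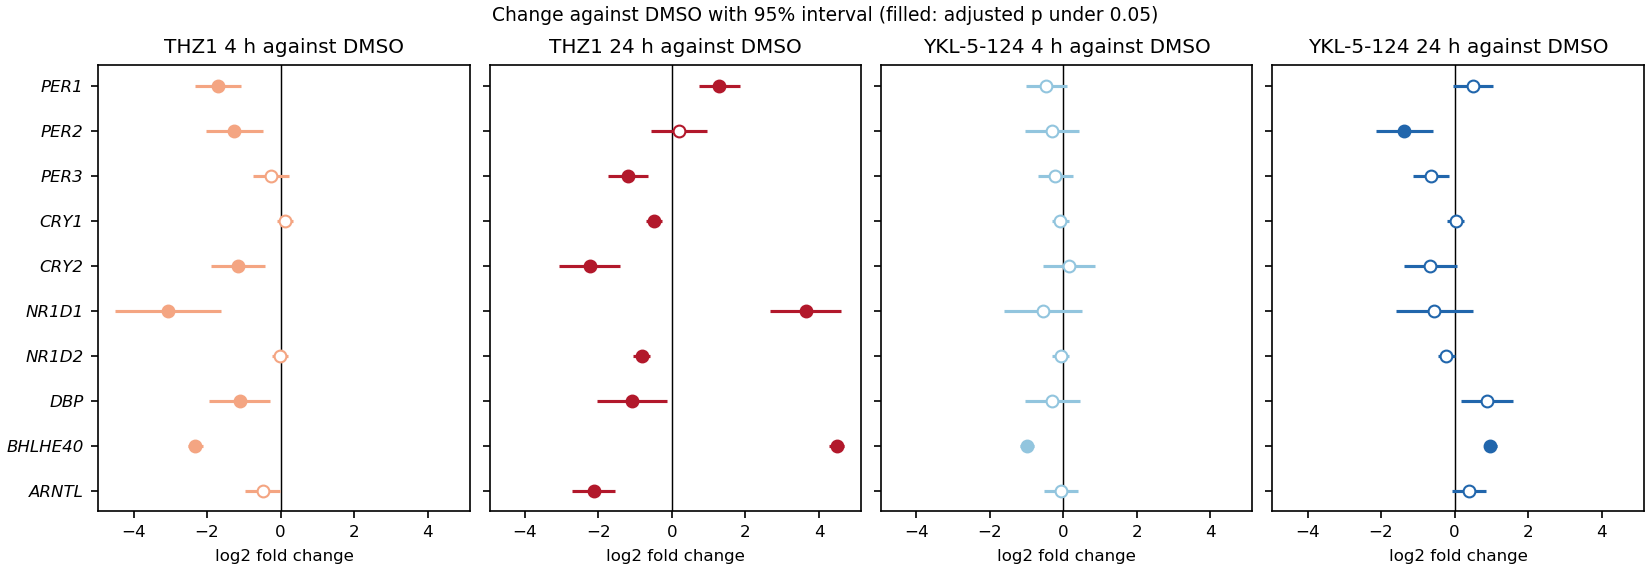
Log2 fold change against DMSO (x axis) of each clock gene in the 4 treated groups, with 95% intervals from edgeR's fit to all 15 libraries; filled points passed an adjusted p of 0.05. Most intervals lie left of 0 after 4 h of THZ1 and spread to both sides after 24 h. In YKL-5-124 the filled points are BHLHE40 at both times and PER2 at 24 h.

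Counted together after 4 h of THZ1, 0 of the 10 clock genes rose and 6 fell, where 42% of all genes tested were called, 16.9% higher and 25.1% lower. The 6 were PER1, PER2, CRY2, NR1D1, DBP and BHLHE40. The median log2 change of the 10 was -1.14, and that of all genes was 0.00. CRY1, NR1D2 and PER3 overlapped DMSO. In 7 of 10 the treated libraries did not overlap DMSO, against 49.3% of all genes.

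After 24 h of THZ1, 3 rose (BHLHE40, NR1D1 and PER1) and 6 fell (CRY2, ARNTL, PER3, DBP, NR1D2 and CRY1), in a comparison that called 76.2% of all genes, 32.3% higher and 44% lower. The share of clock genes called is therefore near that of any genes. In 9 of the 10 the groups did not overlap, as in 77.1% of all genes. Their median log2 change was -0.66 against -0.37 for all genes. With library totals 2 rose and 7 fell, relative to ribosomal protein mRNAs 2 rose and 8 fell, and with RLE factors 3 rose and 4 fell. BHLHE40 and NR1D1 were higher, and CRY2, ARNTL, PER3 and NR1D2 lower, under all of these. The median of all genes moved with the scaling too, as given further below. Counts of genes called under other scalings or fits, here and below, stand without the share of all genes called in the same fit. The 2 that rose most also have the shortest exonic lengths of the 10 (2772 bases in NR1D1 and 3837 in BHLHE40), in libraries where short transcripts stood higher. The 3 that rose are among the 4 with the shortest genomic spans (6.21 to 16.035 kb), and the other of those 4, DBP, fell. These lengths are a description, and their part was not tested.

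After 4 h of YKL-5-124 BHLHE40 alone passed (0 rose and 1 fell), where 0.519% of all genes were called. It was also the 1 clock gene whose libraries lay apart from DMSO, against 16.2% of all genes. At 24 h BHLHE40 rose and PER2 fell, where 21.6% of all genes were called, 8.92% higher and 12.7% lower. The libraries lay apart from DMSO in 7 of the 10 clock genes, against 39.5% of all genes. These counts depended on the handling of library differences. With the length slope as a covariate, centred within each group, 3 clock genes rose and 4 fell. Relative to ribosomal protein mRNAs 4 rose and 0 fell, and with library totals 2 rose and 1 fell. All comparisons with DMSO use the same 3 control libraries.

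**Figure D3:**
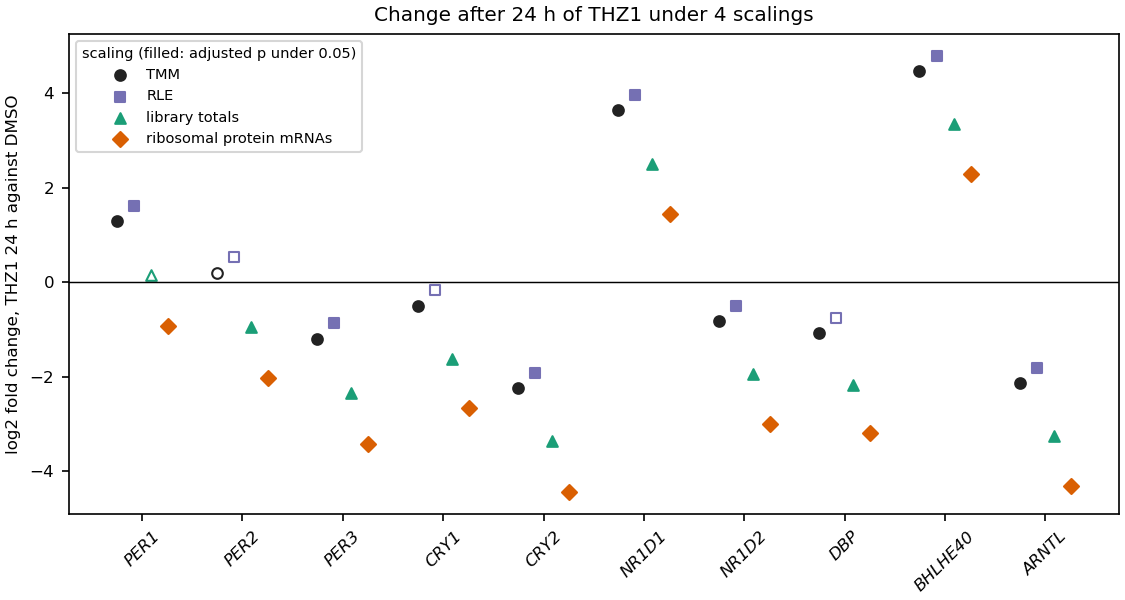
Log2 fold change of each clock gene after 24 h of THZ1 (y axis) under 4 ways of scaling libraries; filled symbols passed an adjusted p of 0.05. BHLHE40 and NR1D1 stay above 0 under each scaling, PER1 runs from 1.61 to -0.92 and PER2 from 0.53 to -2.03, and the other 6 stay below 0.

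The compounds were set side by side at the same dose of 100 nM and at equal times, which compares 2 compounds and not 2 equal degrees of CDK7 inhibition. Targets other than CDK7 may also differ between the compounds, and their part cannot be told apart here. At 4 h THZ1 had 4 clock genes lower than YKL-5-124 and 0 higher, where 33.3% of all genes were called, 21.9% lower and 11.4% higher. BHLHE40 was 2.51-fold lower (log2 -1.33 ± 0.10, adjusted p = 7.4e-08) and PER1 2.36-fold lower (-1.24 ± 0.29, adjusted p = 0.0042). CRY2 was 2.51-fold lower (-1.33 ± 0.35, adjusted p = 0.0083) and NR1D1 5.68-fold lower (-2.50 ± 0.71, adjusted p = 0.013). The groups lay apart in 6 of the 10, against 43.7% of all genes. The NR1D1 value was -4.47 without THZ1 4 h replicate 1, and the call was lost without THZ1 4 h replicate 3 or YKL-5-124 4 h replicate 2 (-2.14 in each case). For PER2 every THZ1 library lay below every YKL-5-124 library and the test did not pass (-0.95 ± 0.37, adjusted p = 0.058). For CRY1 the 95% interval was -0.03 to 0.41, for NR1D2 -0.17 to 0.28 and for PER3 -0.54 to 0.43, which bounds but does not exclude a difference.

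At 24 h, 4 clock genes were higher in THZ1 than in YKL-5-124 and 5 lower, where 75.9% of all genes were called, 31.8% higher and 44.1% lower. The groups lay apart in all 10, against 78.7% of all genes. NR1D1 was 18.3-fold higher (log2 4.19 ± 0.47, adjusted p = 8e-07), BHLHE40 11.3-fold (3.50 ± 0.09, adjusted p = 2.2e-12), PER2 2.95-fold (1.56 ± 0.38, adjusted p = 0.0015) and PER1 1.73-fold (0.79 ± 0.26, adjusted p = 0.012). ARNTL was 5.74-fold lower (-2.52 ± 0.27, adjusted p = 4.6e-07), DBP 3.90-fold (-1.97 ± 0.43, adjusted p = 0.00063) and CRY2 2.98-fold (-1.58 ± 0.39, adjusted p = 0.0018). NR1D2 was 1.52-fold lower and CRY1 1.43-fold lower. The CRY1 value (log2 -0.52 ± 0.10) was near the median of all genes (-0.39), and its call was lost with RLE factors and with DESeq2. PER3 did not pass (-0.54 ± 0.26, adjusted p = 0.072). The PER1 difference was lost without THZ1 24 h replicate 3 (log2 0.55) and turned to -0.49 with library totals. With library totals 2 clock genes were higher and 6 lower, and relative to ribosomal protein mRNAs 2 and 8. The PER2 difference was lost with library totals and turned to -1.25 relative to ribosomal protein mRNAs.

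Between 4 h and 24 h of THZ1, 4 clock genes rose and 5 fell, where 67.1% of all genes were called, 31.4% higher and 35.7% lower. The libraries of the 2 times lay apart in 8 of the 10, against 68.3% of all genes. BHLHE40 (log2 6.79 ± 0.11, adjusted p = 4.1e-15) and NR1D1 (6.70 ± 0.60, adjusted p = 1.1e-07) moved most, from 3.71 ± 0.158 to 412 ± 28.5 CPM and from 7 to 347 counts in all. PER1 rose 7.93-fold (2.99 ± 0.29) and PER2 2.74-fold (1.45 ± 0.38), the latter not under library totals. ARNTL, CRY2, PER3, NR1D2 and CRY1 fell by 1.65, 1.07, 0.93, 0.81 and 0.60 on the log2 scale. For CRY2 the libraries of the 2 times overlapped, and the call was lost without THZ1 4 h replicate 2 (-0.58) or 3 (-1.08) or THZ1 24 h replicate 1 (-0.77) or 2 (-0.91). For NR1D1 the value was 8.66 without THZ1 4 h replicate 1. Relative to ribosomal protein mRNAs 3 rose and 6 fell.

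Between 4 h and 24 h of YKL-5-124, 3 rose and 1 fell, where 21.1% of all genes were called, 9.22% higher and 11.9% lower. The libraries of the 2 times lay apart in 7 of the 10, against 41% of all genes. BHLHE40 rose 3.90-fold (1.96 ± 0.09, adjusted p = 1.1e-08), DBP 2.26-fold (1.18 ± 0.34, adjusted p = 0.022) and PER1 1.95-fold (0.96 ± 0.26, adjusted p = 0.017). PER2 fell by 1.06 ± 0.36 on the log2 scale with overlapping libraries. Without YKL-5-124 4 h replicate 2 the DBP (1.04), PER1 (0.97) and PER2 (-0.89) calls were all lost. DBP was also lost without 4 h replicate 3 (1.236) or 24 h replicate 3 (1.02), and PER1 without 4 h replicate 1 (0.85) or 24 h replicate 3 (0.81). PER2 was lost as well without 4 h replicate 3 (-0.99) or 24 h replicate 1 (-0.82) or 2 (-0.96). With library totals 4 rose and 0 fell, and relative to ribosomal protein mRNAs 6 and 0. The change over time differed between the compounds for 7 of the 10 genes, 4 with the higher value in THZ1 and 3 with the lower, where 57.6% of all genes differed, 26.6% higher and 31% lower. The 3 without such a difference by this test were PER3, CRY2 and DBP.

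Ratios between 2 clock genes within a library need no scaling between libraries. Here 7 pairs were compared in 6 comparisons each, as log2 ratios of counts per kb, with an exact two-sided permutation test. With 3 libraries against 3 this test cannot give a p below 0.1. In 23 of the 42 comparisons the groups did not overlap, each at that smallest p of 0.1 (0.183 after Benjamini-Hochberg adjustment over the 42), so none can pass a threshold of 0.05.

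PER1 to PER2 was 0.31 ± 0.23 (SD, n = 3) in DMSO, 1.39 ± 0.22 after 24 h of THZ1 and 2.20 ± 0.40 after 24 h of YKL-5-124. PER1 thus stood higher against PER2 after 24 h of either compound, without overlap with DMSO. PER2 to PER3 fell from -0.18 ± 0.14 in DMSO to -1.12 ± 0.17 at 4 h of THZ1 and stood at 1.18 ± 0.49 at 24 h. CRY1 to CRY2 was 2.73 ± 0.44 in DMSO, 4.14 ± 0.82 and 4.57 ± 0.76 at 4 h and 24 h of THZ1, and 2.49 ± 0.31 and 3.40 ± 0.15 in YKL-5-124. CRY1 therefore gained on CRY2 in both THZ1 groups and in YKL-5-124 24 h.

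The pair NR1D1 and ARNTL, a repressor and its target in the textbook loop, moved in opposite directions after 24 h of THZ1. At 4 h of THZ1 both lay below DMSO in every library. Whether the change of one bears on the other was not tested. The ratio of NR1D1 to ARNTL was -1.22 ± 0.58 in DMSO, -4.25 ± 1.78 at 4 h and 4.65 ± 0.31 at 24 h of THZ1. The 4 h value rests on 7 NR1D1 counts, with 1 library at 0. In YKL-5-124 24 h it was -2.13 ± 0.38, overlapping DMSO. NR1D1 to NR1D2 went from -5.40 ± 0.67 in DMSO to -8.90 ± 1.78 and -0.91 ± 0.53 at 4 h and 24 h of THZ1. The last group ran from -1.503 to -0.51, the nearest that the 2 receptors came to each other. ARNTL to CLOCK was -2.97 ± 0.19 in DMSO and -2.88 ± 0.94 after 24 h of THZ1, overlapping, since CLOCK fell too. Without overlap, this ratio lay below DMSO at 4 h of THZ1 (-3.26 ± 0.11) and above DMSO at 24 h of YKL-5-124 (-2.35 ± 0.11). At 4 h of YKL-5-124 it was -2.76 ± 0.17, overlapping DMSO. DBP to NFIL3, an activator and a repressor of the same D-box, overlapped DMSO in all 4 treated groups. A ratio of BHLHE40 to its paralog BHLHE41 was left out, since BHLHE41 had 2 counts over the DMSO libraries and did not pass the filter on low counts.

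**Figure D4:**
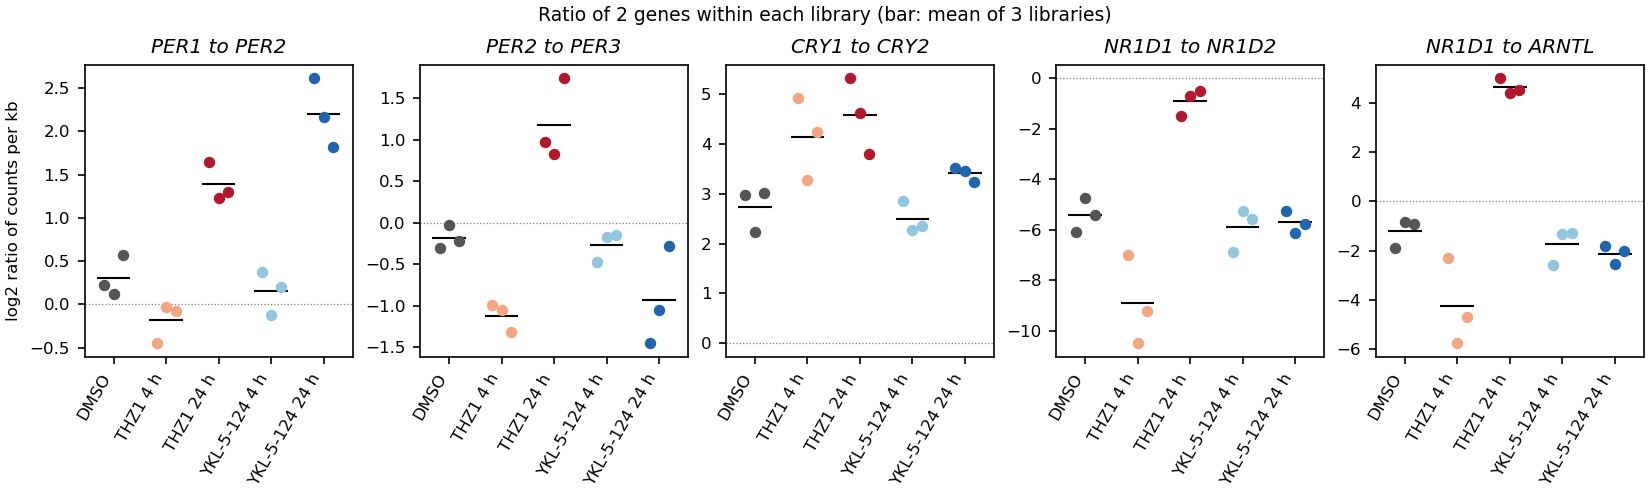
Log2 ratio of counts per kb between 2 clock genes within each library (y axis; bars are means of 3 libraries), which no scaling between libraries can move. NR1D1 to ARNTL lies between 4.42 and 5.00 in the THZ1 24 h libraries and below 0 in all others.

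Other genes of the clock were read from 5 lists totalling 51 genes, of which 46 were tested. Of the transcription factors and loop partners, 6 of 9 were tested. After 4 h of THZ1, where 42% of all genes were called, TIMELESS rose (log2 0.63 ± 0.11) and CIART, a PER-like repressor, fell (-3.002 ± 0.42). Relative to ribosomal protein mRNAs 0 rose and 3 fell. After 24 h of THZ1, where 76.2% of all genes were called, 3 rose and 2 fell. TIMELESS (1.998 ± 0.11) and ARNTL2, the paralog of ARNTL (1.62 ± 0.16), were the largest rises, and CLOCK (-2.28 ± 0.13) and the ARNTL activator RORA (-1.04 ± 0.26) fell. ARNTL2 went from 36.1 ± 7.25 to 110.9 ± 12.3 CPM while ARNTL fell to 1.20 ± 0.520. Relative to ribosomal protein mRNAs none of the 3 rises remained and 4 fell. At 24 h of YKL-5-124 RORA rose (0.64 ± 0.22) and TIMELESS fell (-0.78 ± 0.11), where 8.92% of all genes rose and 12.7% fell.

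Of the clock outputs 7 of 8 were tested. After 4 h of THZ1, 6 fell and 0 rose (25.1% and 16.9% of all genes), with a median log2 change of -2.43. Of those at a mean of at least 1 CPM the cell cycle kinase WEE1 (-3.78 ± 0.20) and the D-box activator TEF (-3.43 ± 0.34) fell most. KLF9, below that level, was at -3.71 ± 0.85. At 24 h, where 44% of all genes fell and 32.3% rose, 4 fell, among them WEE1 (-2.02 ± 0.19) and NFIL3 (-1.26 ± 0.30), and 2 rose. KLF10, a clock-controlled repressor, was at 57.1 ± 7.45 CPM in DMSO, 10.6 ± 2.66 at 4 h and 2134 ± 368 at 24 h of THZ1 (log2 -2.43 ± 0.20 and 5.22 ± 0.22), higher at 24 h under each scaling. The other that rose, NOCT (0.67 ± 0.21), was at -0.46 with library totals and at -1.54, called lower, relative to ribosomal protein mRNAs. NOCT was also the 1 output that rose after 24 h of YKL-5-124 (0.81 ± 0.20), where 8.92% of all genes rose. Relative to ribosomal protein mRNAs 4 of the 7 outputs rose there.

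Of the kinases and ubiquitin ligases that set the stability of PER and CRY proteins, 10 of 11 were tested. In THZ1 5 fell at 4 h, where 25.1% of all genes did, and 8 at 24 h, where 44% did. None of the 10 rose at either time, against 16.9% and 32.3% of all genes. CSNK1D, a PER kinase, fell by 1.32 ± 0.12 on the log2 scale and then by 2.66 ± 0.13. In YKL-5-124 0 of the 10 passed at either time under TMM, and relative to ribosomal protein mRNAs 5 rose at 24 h. Under TMM 0.519% of all genes were called at 4 h and 21.6% at 24 h.

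All 13 cofactors of the PER, CRY and REV-ERB complexes were tested. After 4 h of THZ1 3 rose (16.9% of all genes), led by HDAC1 (0.68 ± 0.08) and NONO (0.50 ± 0.09), and 3 fell (25.1%), led by SIN3A (-1.45 ± 0.15) and SIRT1 (-1.40 ± 0.14). With library totals 1 rose and 4 fell. After 24 h 3 rose, led by HDAC1 (2.70 ± 0.09) and HDAC3 (2.01 ± 0.14), the corepressor enzyme of the REV-ERB receptors, and 8 fell, led by SIRT1 (-3.33 ± 0.15) and KDM5A (-2.70 ± 0.15). The 11 of 13 called stand beside 76.2% of all genes, 32.3% higher and 44% lower. Relative to ribosomal protein mRNAs 1 rose and 10 fell at that time, and HDAC3 was at -0.15. At 24 h of YKL-5-124 4 fell under TMM, where 12.7% of all genes did, among them NONO (-0.70 ± 0.09) and SFPQ (-0.47 ± 0.10). With library totals 3 rose and 1 fell.

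The 10 CREB and serum inputs to the PER genes were all tested. After 4 h of THZ1 5 fell and 0 rose (25.1% and 16.9% of all genes), with SIK1, an inhibitor of that input (-2.60 ± 0.46), and CREB1 (-1.75 ± 0.12) the largest. After 24 h (44% and 32.3% of all genes) 5 fell, led by SIK2 (-2.73 ± 0.30) and SIK3 (-2.06 ± 0.28), and 2 rose, SIK1 (1.40 ± 0.36) and CRTC2 (0.76 ± 0.12). With library totals 0 rose and 8 fell. SIK1 thus had the order in time seen in PER1, NR1D1 and BHLHE40 under TMM. In YKL-5-124 0 of the 10 passed at either time under TMM. Of all genes 0.519% were called at 4 h and 21.6% at 24 h. With library totals 1 of the 10 fell at 4 h and 2 rose at 24 h, and relative to ribosomal protein mRNAs 2 rose at 24 h.

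Among the clock genes themselves the closest profiles over the 12 treated libraries, as log2 CPM minus the DMSO mean, were those of CRY1 and NR1D2, with a root-mean-square difference of 0.23. PER3 and NR1D2 followed at 0.37. NR1D1 and BHLHE40 differed by 1.03, the smallest distance of either to another clock gene, and CRY2 and BHLHE40 by 3.60, the largest of the 45 pairs. Of all other protein-coding genes at a mean of at least 1 CPM, the nearest to BHLHE40 was UBOX5 (0.61), a ubiquitin ligase gene at 5.88 ± 0.311 CPM in DMSO and 139.6 ± 51.6 CPM in THZ1 24 h. The nearest to NR1D1 was ARRDC3 (0.85), which went from 31.5 ± 1.68 to 8.85 ± 2.08 and then 258 ± 17.5 CPM over the THZ1 times. The nearest to PER1 was NRARP (0.35), to PER2 LRFN4 (0.46) and to DBP JUND (0.30). The others were nearest to GGA2 (CRY1, 0.10), TIA1 (NR1D2, 0.10), ZDHHC18 (PER3, 0.15), CACUL1 (ARNTL, 0.22) and PLEKHO1 (CRY2, 0.37). CRY1 and NR1D2, the 2 most abundant clock genes in DMSO, had the closest neighbours, and the 2 that rose most in THZ1 24 h the most distant. A distance of this kind depends on the level and on the size of the change, and shared regulation was not tested.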

How the data were processed

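RNA sequencing of PATU-8988T cells gave 15 libraries in 5 groups of 3, taken with their replicate numbers from the labels. The authors deposited raw counts per gene in 1 table. The submitters' processing notes name the GRCh38 build, featureCounts 1.5.0-p3, STAR 2.6.1d and DESeq2 1.24.0. Its strand setting and filters are not given here. The members and the other gene lists were chosen with earlier results of these data known, and named genes of each list are up to 2 called in each direction with the largest change at a mean of at least 1 CPM. Some genes of these lists are not reported here.

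From these counts edgeR 4.0.16 (R 4.3.3) fitted 1 model over the 15 libraries (factor: group) with TMM scaling and its quasi-likelihood F test, after filterByExpr (minimum count 10, minimum total 15), which kept 14461 genes and 99.9% of counts. Adjusted p-values are Benjamini-Hochberg over all genes tested, with a threshold of 0.05, in 8 comparisons between groups and 1 interaction of compound and time. NR1D1 was above the filter's 0.509 CPM in 11 libraries, DBP in 10, ARNTL in 14 and the others in 15. The script was tested on simulated data in which few genes changed. That does not test TMM scaling where most genes are called, as in THZ1 24 h. Log2 ratios within a library had 0.5 counts added. Depth sets the precision of NR1D1 and DBP, for which exact intervals of count ratios are given. All replicates were kept, since every pair differed beyond sampling noise, with a chi-square of 4.19 to 77.0 per degree of freedom. Alternatives were RLE factors, library totals, ribosomal protein mRNAs as reference (87 genes), no filter, DESeq2 1.42.0, only the groups compared, a replicate block, the length slope as covariate, and leaving out each library. Promoter windows came from RefSeq (GRCh38.p14), and gene structures and overlaps from GENCODE 29, whose starts and ends match the table for all 10 members.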

Additional observations from a re-analysis of the deposited data

Results flagged for a closer look

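For 7 clock genes the change from 4 h to 24 h differed between THZ1 and YKL-5-124, by the interaction term of edgeR's quasi-likelihood fit (Benjamini-Hochberg over all genes, 57.6% of which passed). The log2 difference, THZ1 minus YKL-5-124, was 6.70 ± 0.81 for NR1D1 (adjusted p = 4.8e-06), 4.83 ± 0.13 for BHLHE40 (adjusted p = 8.4e-12), 2.51 ± 0.52 for PER2 (adjusted p = 0.00077) and 2.02 ± 0.39 for PER1 (adjusted p = 0.00038). It was -2.09 ± 0.35 for ARNTL (adjusted p = 0.00011), -0.70 ± 0.15 for CRY1 (adjusted p = 0.00075) and -0.66 ± 0.15 for NR1D2 (adjusted p = 0.0018). For BHLHE40 both compounds rose with time, by 6.79 and by 1.96 on the log2 scale. For PER2 the compounds went opposite ways, by 1.45 in THZ1 and by -1.06 in YKL-5-124. For NR1D1 the change in YKL-5-124 was 0.00 ± 0.49. The NR1D1 value was 8.66 without THZ1 4 h replicate 1. The PER1 difference was not called with library totals or relative to ribosomal protein mRNAs, nor that of PER2 relative to the latter. The other 5 passed in each of 20 alternative fits. With library totals the term was called positive for 3 of the 10 genes and negative for 5, and relative to ribosomal protein mRNAs for 2 and 6.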

How the results depend on the processing

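The 90 values of clock genes (10 genes in 9 comparisons) had 1320 alternative values, many of them from the same alternative fit. Of these, 57 lost the call, 47 gained one and 10 turned direction with a call in either fit. The other 1206 kept the call or its absence, 36 of them with a change of sign and no call in either fit. Scaling moved the comparisons with THZ1 24 h most. The median log2 change of all genes against DMSO was -0.37 with TMM, -0.04 with RLE factors, -1.49 with library totals and -2.55 relative to ribosomal protein mRNAs. The turned values were PER2 in THZ1 24 h against DMSO (-0.94 with library totals, -2.03 with the ribosomal protein reference), PER1 there (-0.92, ribosomal protein reference), PER1 in THZ1 against YKL-5-124 at 24 h (-0.49 with library totals, -1.999 with the reference), PER2 there (-1.25), PER2 and DBP between the THZ1 times (-0.20 and -1.52), NR1D2 between the YKL-5-124 times (0.54) and the interaction of PER1 (-0.35), the last 5 with the reference.

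Counts of clock genes called moved by over 1.5 times in these cases; the cause was not tested. For YKL-5-124 4 h against DMSO the count was 0, not 1, with only these groups in the fit (edgeR, BHLHE40 at adjusted p = 0.0511), and 1 with DESeq2. For YKL-5-124 24 h it was 2, but 4 with the ribosomal protein reference and 7 with the length slope, and 1 to 2 when 1 library was left out, the call of PER2 being lost without DMSO replicate 2 or YKL-5-124 24 h replicate 1 or 2. For THZ1 against YKL-5-124 at 4 h it was 4, but 7 with library totals, all lower. Between the YKL-5-124 times it was 4, and 1 to 3 without 1 of the libraries.

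The labels do not say that a replicate number marks a shared culture or day, so the numbers were not taken as pairs. Deviations of same-numbered libraries from their group means correlated at 0.23 to 0.53 in all 10 pairs of replicate 1. The others ran between -0.47 and 0.53, and 20 of 30 pairs in all were over 0.1. With the replicate number as a block the counts were 6, 9, 1 and 3 against DMSO (THZ1 4 h, THZ1 24 h, YKL-5-124 4 h, YKL-5-124 24 h), 5 and 10 between compounds at 4 h and 24 h, 9 and 5 between times of THZ1 and YKL-5-124, and 7 for the interaction. The block added 4 calls, all lower: PER3 in YKL-5-124 24 h against DMSO (adjusted p = 0.034) and in THZ1 against YKL-5-124 at 24 h (0.0435), PER2 between the compounds at 4 h (0.0215) and CRY2 between the YKL-5-124 times (0.0346). No call was lost. Adding 1 in place of 0.5 counts moved no within-library ratio by more than 1 SD. Most of the 294 alternatives left out a library instead. Leaving out 1 of 3 libraries cannot move a ratio by 1 SD, whatever the values, so those alternatives are no check. The planned ratio of BHLHE40 to BHLHE41 was not used, for want of BHLHE41 counts. Depth limits NR1D1 outside THZ1 24 h and DBP throughout.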

Other observations

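PER1, NR1D1, BHLHE40, KLF10, SIK1, NRARP, ARRDC3 and UBOX5 shared an order in time in THZ1 under TMM scaling, lower than DMSO at 4 h and higher at 24 h; KLF10, SIK1 and the last 3 were singled out after their values were seen. In YKL-5-124 BHLHE40 had that order with both changes past the threshold by edgeR's quasi-likelihood test. UBOX5 was at -0.08 ± 0.22 at 4 h and rose at 24 h by 0.63 ± 0.21 on the log2 scale. KLF10 was at -0.54 ± 0.19 and 0.09 ± 0.19, and ARRDC3 at 0.06 ± 0.17 and 0.35 ± 0.17, none past the threshold. JUND, the gene nearest to DBP, fell in both THZ1 groups (by 1.237 and by 1.09) and rose after 24 h of YKL-5-124 (0.93 ± 0.21). DBP was at 0.88 ± 0.33 there.

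DMSO replicate 2 held the highest value of its group for PER1, PER2, PER3, CRY2, NR1D1 and ARNTL and the lowest for CRY1, NR1D2, DBP and BHLHE40. Its length slope was 0.16, against 0.04 in the other 2 DMSO libraries.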
